A study of Homo sapiens with 21 samples.

Results

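The genes described here encode 9 enzymes of serine synthesis and folate-bound one-carbon metabolism: PHGDH, PSAT1, PSPH, SHMT1, SHMT2, MTHFD1, MTHFD2, MTHFD1L and MAT2A. They were chosen by symbol, by a rule that uses no measured value, though with earlier results of these data known. All 9 matched 1 Ensembl gene each among the 37637 features of the count table. Gene expression was measured by RNA sequencing of poly(dT)-purified RNA in HepG2, a cell line derived from a human liver tumour. The 7 groups received caffeine at 0, 0.01, 0.1, 1, 10, 100 or 1000 µM for 6 h, with 3 libraries per dose and 21 in all, and the cells of every group, untreated ones included, were held in medium without serum during exposure. A single cell line was used, and the design text calls the libraries of a group biological replicates while naming coumarin for the control, which the sample labels give as untreated cells at 0 µM caffeine.

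Serine is made from a glycolytic intermediate by PHGDH, PSAT1 and PSPH acting in sequence. SHMT1 in the cytosol and SHMT2 in mitochondria then move a carbon unit from serine to tetrahydrofolate and leave glycine. The folate-bound unit is converted between its forms by the MTHFD enzymes, MTHFD1 in the cytosol and MTHFD2 and MTHFD1L in mitochondria. The units feed purine and thymidylate synthesis and the remethylation of homocysteine to methionine, from which MAT2A makes S-adenosylmethionine, the methyl donor of the cell. Many of these genes are known targets of the transcription factor ATF4 in the amino acid response, and in liver the pathway meets glycine breakdown and MAT1A, the hepatocyte form of methionine adenosyltransferase.

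The libraries held 28043623 to 40827833 counts each (median 32497612), and mitochondrially encoded genes took 4.95% to 14.2% of them. Of 10 hepatocyte markers all were tested and summed to 26206 to 32064 CPM (counts scaled to a common library size by the TMM method), with ranges at 0 and 1000 µM of 28128 to 30779 and 26206 to 27793. COL1A2 was at 0 throughout, the 4 fibroblast markers together reached at most 0.190 CPM, 2 endothelial markers at most 0.345 CPM, and 4 leukocyte markers summed to 917 to 1422 CPM, from CD68 and LYZ, while PTPRC and CD3E were near 0. Replicate 1 at 0.01 µM stood farthest from its group, with a median absolute log2 difference of 0.35 from the other 2 libraries, against 0.09 to 0.29 for the rest.

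The upstream sequences of a member that was higher and a member that was lower at 1000 µM are shown first, because expression of these genes is often discussed through short promoter elements. They come from RefSeq windows on GRCh38.p14 that run from 250 bases before to 50 bases after a start site, and 7 of the 9 genes matched the table, with 10 windows in all. The printed parts end where the first exon in GENCODE release 29 begins, with MTHFD2 at chr2:74198365-74198561 on the plus strand and SHMT1 at chr17:18363564-18363800 on the minus strand.
MTHFD2: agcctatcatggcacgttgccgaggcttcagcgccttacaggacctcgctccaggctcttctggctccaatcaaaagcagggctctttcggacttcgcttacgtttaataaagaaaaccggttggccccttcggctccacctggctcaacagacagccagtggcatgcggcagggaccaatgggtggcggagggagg
SHMT1: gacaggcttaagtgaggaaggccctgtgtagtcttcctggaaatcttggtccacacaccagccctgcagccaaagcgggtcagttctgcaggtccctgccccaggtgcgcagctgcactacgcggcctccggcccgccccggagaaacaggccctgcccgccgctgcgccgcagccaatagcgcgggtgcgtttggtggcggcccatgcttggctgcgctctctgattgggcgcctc

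These windows were searched on both strands for TGATGNAA, the core of the element bound by C/EBP-ATF dimers, for TGACGTCA, the cAMP response element, and for the E-box CACGTG. The 3 motifs occur in 3.62%, 1.85% and 7.26% of 35116 RefSeq windows of the same length. Neither sequence above holds any of them, which says only that these letters are not in these windows. Among the members, CACGTG was found in the MTHFD1 window and in 3 overlapping windows of MTHFD1L, which also held TGATGCAA. The MTHFD1L matches are shown with their flanks, on the plus strand at chr6:150866322-150866347 and chr6:150866347-150866374, with the matched letters in capitals.
MTHFD1L E-box: cgcccggctcCACGTGcgcagccggc
MTHFD1L C/EBP-ATF core: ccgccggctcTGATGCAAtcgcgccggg

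All 9 genes were well expressed and passed the filter on low counts, from 1661 counts for SHMT1 to 16804 for SHMT2 in single libraries. Per kilobase of transcript, the mean level at 0 µM was 144 CPM for SHMT2, 126 CPM for PSAT1, 78.4 CPM for PHGDH, 71.9 CPM for MAT2A, 59.9 CPM for MTHFD1, 53.6 CPM for PSPH, 36.6 CPM for MTHFD2, 35.1 CPM for SHMT1 and 22.8 CPM for MTHFD1L. The mitochondrial hydroxymethyltransferase thus stood above its cytosolic counterpart on this scale. At 1000 µM MTHFD2 reached 60.7 ± 9.46 CPM per kilobase (SD, n = 3) and stood above MTHFD1 at 46.4 ± 3.24, while SHMT1 stood lowest of the 9 at 22.3 ± 0.782. Within doses PSAT1 was the least even member, with a mean coefficient of variation of 20.6%, and MTHFD2 followed at 12.8%, against a median of 9.01% and a 90th percentile of 15.5% over 4089 features at 50 to 500 CPM. The other 7 members lay between 4.01% and 9.04%.

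**Figure D1:**
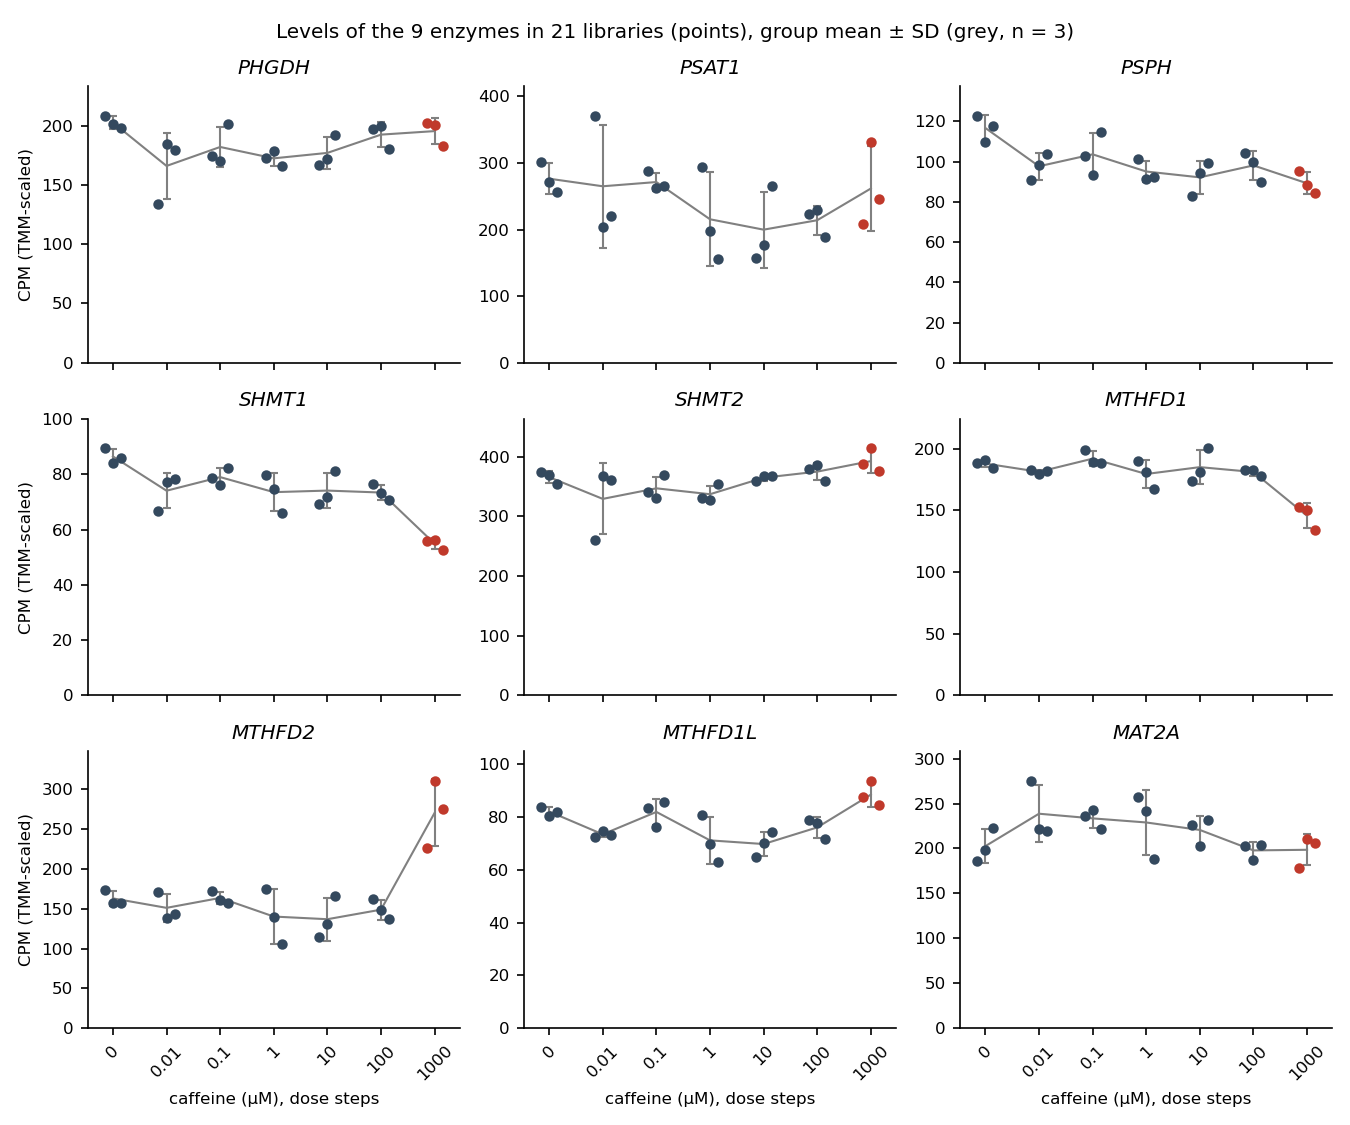
TMM-scaled CPM (y axis, from 0) of each enzyme against the caffeine dose in steps (x axis). Points are the 21 libraries, red at 1000 µM, and grey lines join group means with bars of 1 SD (n = 3). MTHFD2 at 1000 µM sits between 226 and 310.2 CPM, above the other 18 libraries, while SHMT1 and MTHFD1 at 1000 µM sit below the other 18.

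At 1000 µM against 0 µM the mitochondrial MTHFD2 rose, the cytosolic SHMT1 and MTHFD1 and the phosphatase PSPH fell, and PHGDH, PSAT1, SHMT2, MTHFD1L and MAT2A did not pass the test. These 4 of 9 members compare with 41.2% of the 17468 tested features, with an adjusted p under 0.05 (quasi-likelihood test of edgeR, Benjamini-Hochberg over all features), so the share called among the members was near the background. In separate directions, 1 member was higher and 3 were lower, and 20.6% of all features passed each way. The groups did not overlap for 6 of 9 members, MTHFD2, SHMT2 and MTHFD1L lying above and SHMT1, MTHFD1 and PSPH below, against 53.2% of all features. The median log2 fold change of the 9 was -0.05, and that of all tested features was -0.03. In these bulk samples fewer cells of a type and less RNA per cell cannot be told apart.

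MTHFD2 (chr2:74198562-74217565, plus strand) encodes the mitochondrial dehydrogenase and cyclohydrolase of methylene-tetrahydrofolate. Its 3 libraries held 174, 157 and 158 CPM at 0 µM and 226, 310.2 and 275 CPM at 1000 µM. The groups did not overlap, and the log2 fold change was 0.73 ± 0.16 (SE, edgeR adjusted p 0.00161), which is 1.66-fold. In between it measured 171, 139 and 144 CPM at 0.01 µM and 172, 161 and 158 CPM at 0.1 µM. The libraries at 1 µM held 174, 140.3 and 106 CPM, and those at 10 µM held 114, 130.2 and 166 CPM. At 100 µM it was 162, 148 and 137 CPM. No library below 1000 µM reached the lowest at that dose, and all 6 comparisons of 1000 µM with another dose passed the threshold, while none of the 15 comparisons among the lower doses did on the counts as deposited. The 6 comparisons share the same 3 libraries at 1000 µM, here and for the genes below. The share of all features that passed all 6 was not counted. For the comparison with 100 µM it was 14.7%. Leaving out any 1 library of either group kept the call against 0 µM, with log2 fold changes from 0.64 to 0.87.

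The call of MTHFD2 against 0 µM changed with the handling of an overlapping gene. AC006030.1, annotated as a protein-coding gene on the opposite strand, shares 295 exon bases with MTHFD2, and whether the authors' counting used strand is not given in the sources used here. It had 2153, 1518 and 2158 counts in the libraries at 0 µM and 71, 0 and 42 at 1000 µM, where MTHFD2 itself had 5200, 4889 and 4943 counts and 7710, 12596 and 8670 counts. Adding all counts of AC006030.1 to MTHFD2 is an extreme case, since the 295 shared bases are 6.06% of the MTHFD2 exon bases. With all counts of AC006030.1 added to MTHFD2, an alternative chosen after seeing the data, the fold change at 1000 µM against 0 µM was 0.26 on the log2 scale (edgeR adjusted p 0.358) and no longer passed the threshold. At 10 µM against 0 µM it moved from -0.25 to -0.72 (edgeR adjusted p 0.0275), a lower call that the deposited counts of MTHFD2 did not give. The counts of AC006030.1 were uneven elsewhere, at 3216, 484 and 451 at 0.01 µM, 143, 389 and 11 at 1 µM, and 1098, 1191 and 0 at 100 µM. They were at most 6 at 0.1 µM and at most 9 at 10 µM, and against these groups, where the overlapping gene has almost no counts, MTHFD2 was higher at 1000 µM by 0.73 ± 0.16 (edgeR adjusted p 0.00319) and 0.98 ± 0.16 (edgeR adjusted p 0.000363) on the log2 scale. DCTN1, which shares exon sequence with AC006030.1, had 4104, 5607 and 5119 counts at 0 µM and 1366 in replicate 1 at 0.01 µM, and 7294 to 10097 in the other 17 libraries. Deposited MTHFD2 counts averaged 163 CPM at 0 µM, where AC006030.1 had 1518 to 2158 counts. The means were 164 CPM at 0.1 µM and 137 CPM at 10 µM, where AC006030.1 had almost none. The part of this overlap in the MTHFD2 counts was not tested further. SLC4A5 on the opposite strand had at most 20 counts, and 3 pseudogene copies of MTHFD2 at most 1.

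**Figure D2:**
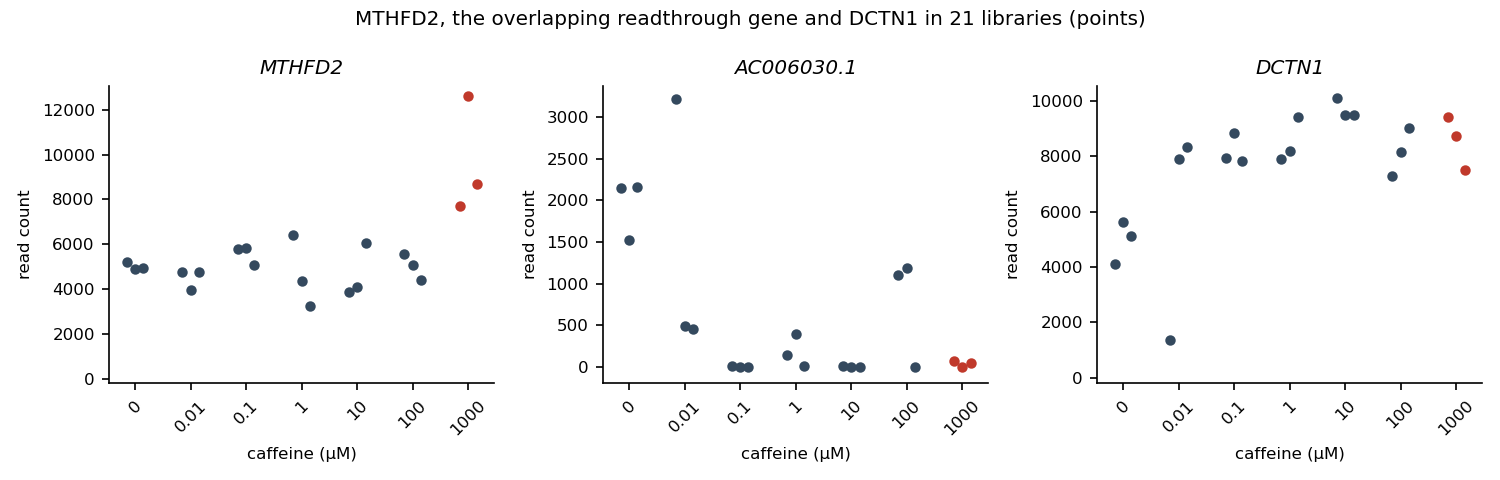
Read counts (y axes) of MTHFD2, of AC006030.1 and of DCTN1 in the 21 libraries (points, red at 1000 µM) by caffeine dose (x axes). AC006030.1 is highest where DCTN1 is lowest, at 0 µM and in replicate 1 at 0.01 µM, and near 0 at 0.1, 10 and 1000 µM.

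SHMT1 (chr17:18327860-18363563, minus strand), the cytosolic hydroxymethyltransferase, gave the smallest p-value of the 9 at this dose. It measured 89.3, 84.0 and 86.0 CPM at 0 µM and 55.9, 56.1 and 52.7 CPM at 1000 µM, and the log2 fold change was -0.66 ± 0.09 (edgeR adjusted p 1.78e-05). In the other groups its level was 66.7, 77.0 and 78.4 CPM at 0.01 µM and 78.6, 76.1 and 82.3 CPM at 0.1 µM. The libraries at 1 µM held 79.6, 74.8 and 66.1 CPM, and those at 10 µM held 69.2, 71.8 and 81.2 CPM. At 100 µM it was 76.4, 73.1 and 70.6 CPM. Every library at 1000 µM lay below every other library, and every library at 0 µM lay above every other. All 6 comparisons that involve 1000 µM passed the threshold, and none of those among the lower doses did. SMCR8 on the opposite strand shares 196 exon bases with SHMT1 and had 1196 to 2315 counts.

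MTHFD1 (chr14:64388031-64463457, plus strand), the trifunctional cytosolic enzyme, was the most even member within doses. Its level was 189, 191 and 184 CPM at 0 µM. At 1000 µM it was 153, 150.4 and 134 CPM, giving a log2 fold change of -0.37 ± 0.07 (edgeR adjusted p 0.000767). The levels were 183, 179 and 182 CPM at 0.01 µM and 199, 189 and 188 CPM at 0.1 µM. The libraries at 1 µM held 190.3, 181 and 167 CPM, and those at 10 µM held 174, 181 and 200.3 CPM. At 100 µM it was 183, 182 and 178 CPM. The 1000 µM libraries lay below the other 18, and as for SHMT1 all 6 comparisons with 1000 µM passed and none of the others did.

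PSPH (chr7:56011051-56051604, minus strand), the last enzyme of serine synthesis, overlapped between 1000 µM and the doses of 0.01 to 100 µM. It measured 123, 109.8 and 118 CPM at 0 µM, but 95.1, 88.3 and 84.3 CPM in cells given 1000 µM, with a log2 fold change of -0.39 ± 0.09 (edgeR adjusted p 0.00346). At 10 µM its level was 83.1, 94.2 and 99.3 CPM, with a log2 fold change of -0.34 ± 0.09 (edgeR adjusted p 0.0176). It ran from 90.7 to 104 CPM at 0.01 µM, from 93.3 to 115 CPM at 0.1 µM, from 91.5 to 101 CPM at 1 µM and from 90.1 to 104 CPM at 100 µM. Of its 21 comparisons between groups only those of 10 and 1000 µM with 0 µM passed. The call at 10 µM was lost without replicate 1 at 0 µM (edgeR adjusted p 0.0831) and without replicate 1 at 10 µM (edgeR adjusted p 0.102).

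The other mitochondrial enzymes were higher than at 0 µM in every 1000 µM library without passing the test. SHMT2 (chr12:57229327-57234935, plus strand) measured 374, 369 and 355 CPM at 0 µM and 387, 414 and 376 CPM at 1000 µM, a log2 difference of 0.10 with a 95% interval of -0.11 to 0.31 (edgeR adjusted p 0.432). MTHFD1L (chr6:150865549-151101887, plus strand), the mitochondrial formyl-tetrahydrofolate synthetase, measured 83.9, 80.6 and 82.0 CPM at 0 µM and 87.5, 93.7 and 84.5 CPM at 1000 µM, a log2 difference of 0.11 with an interval of -0.07 to 0.29 (edgeR adjusted p 0.330). Its levels below the top dose ran from 63.2 to 85.9 CPM, so that 1 library at 0.1 µM lay within the 1000 µM range.

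The first enzymes of serine synthesis and MAT2A gave no call in any of their 21 comparisons between groups. PHGDH (chr1:119648411-119744226, plus strand), which opens the pathway, measured 208, 201 and 198 CPM at 0 µM and 202, 201 and 183 CPM at 1000 µM, with a log2 difference of -0.05 and an interval of -0.27 to 0.17. Its lowest library was replicate 1 at 0.01 µM with 134 CPM, and the other libraries held 166 CPM or more. PSAT1 (chr9:78297143-78330093, plus strand), the aminotransferase, measured 302, 272 and 256 CPM at 0 µM and 208, 332 and 246 CPM at 1000 µM. Its interval of -0.59 to 0.43 on the log2 scale was the widest of the 9, and single libraries elsewhere ran from 156 CPM at 1 µM to 371 CPM in replicate 1 at 0.01 µM. MAT2A (chr2:85539165-85545280, plus strand) measured 186, 199 and 223 CPM at 0 µM and 179, 210.4 and 207 CPM at 1000 µM, an interval of -0.27 to 0.22, and it shares 558 exon bases with GGCX on the opposite strand, which had 1579 to 2590 counts.

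**Figure D3:**
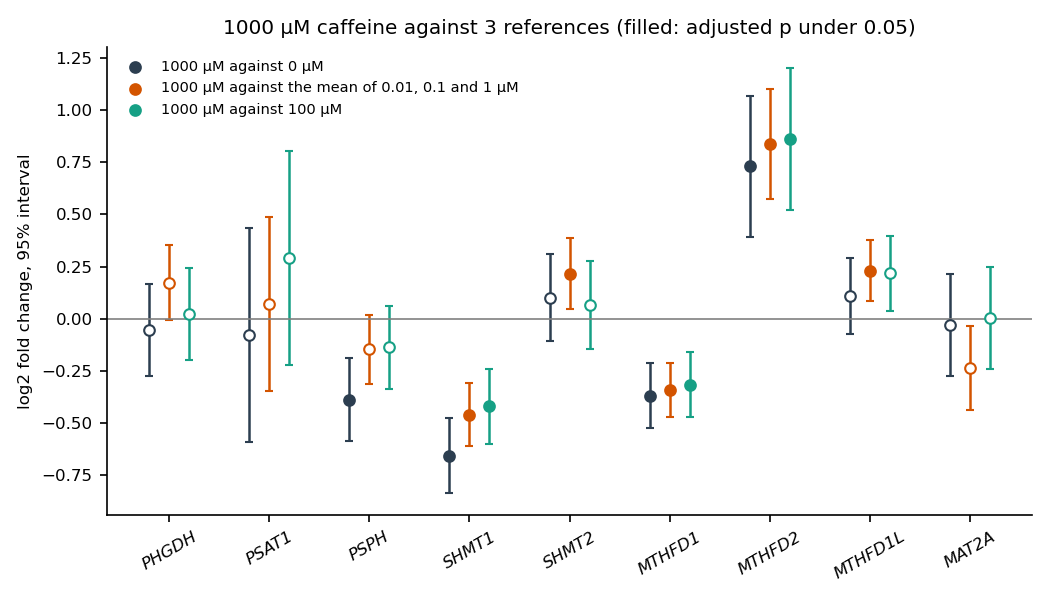
Log2 fold change with its 95% interval (y axis) of the 9 enzymes (x axis) at 1000 µM against 0 µM, against the mean of 0.01, 0.1 and 1 µM, and against 100 µM. Filled points passed the threshold: MTHFD2 lies above 0 and SHMT1 and MTHFD1 lie below 0 for all 3 references, whereas PSPH passed against 0 µM alone.

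Comparisons that leave out the 0 µM libraries ask whether the pattern depends on them. Against 100 µM, MTHFD2 was higher at 1000 µM by 0.86 ± 0.16 on the log2 scale (edgeR adjusted p 0.00164), SHMT1 lower with -0.42 ± 0.09 (edgeR adjusted p 0.00315) and MTHFD1 lower with -0.31 ± 0.07 (edgeR adjusted p 0.00794). These 3 of 9 members compare with 14.7% of all tested features, 8.15% higher and 6.55% lower, and 4 of 9 did not overlap between these groups against 36.8%. With the counts of AC006030.1 added, the MTHFD2 difference was 0.67 (edgeR adjusted p 0.0508) and the call did not hold. The MTHFD1 call was lost without replicate 3 at 1000 µM (edgeR adjusted p 0.0577) and with no filter on low counts (0.0608). MTHFD1L, at 0.22, did not pass (edgeR adjusted p 0.0964). It passed with DESeq2 (adjusted p 0.0402) and in edgeR with the mitochondrial share as a covariate (0.0150).

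Against the mean of 0.01, 0.1 and 1 µM, 5 of 9 members passed where 30.1% of all features did, 16.2% of all features being higher and the rest lower. The 3 mitochondrial enzymes of the folate cycle were higher, MTHFD2 by 0.84 ± 0.13, MTHFD1L by 0.23 ± 0.07 and SHMT2 by 0.22 ± 0.08 on the log2 scale, with edgeR adjusted p of 6.56e-05, 0.0170 and 0.0478. The 2 cytosolic enzymes were lower, SHMT1 with -0.46 ± 0.07 and MTHFD1 with -0.34 ± 0.06, with edgeR adjusted p of 0.000102 and 0.000416. The 1000 µM libraries did not overlap the 9 low-dose libraries for 4 members, against 17.7% of all features. The MTHFD2 call held with AC006030.1 added, at 0.69 (edgeR adjusted p 0.00569). The smaller calls were less firm. MTHFD1L lost it without replicate 2 at 1000 µM (edgeR adjusted p 0.0909), with no filter on low counts (0.0674) and under upper-quartile scaling (0.0540). SHMT2 lost it under that scaling (0.105), with no filter (0.119) and without any 1 of 6 libraries (0.0541 to 0.162). The 6 libraries were replicates 1 and 2 at 0.1 µM, replicate 2 at 1 µM and each replicate at 1000 µM. MAT2A, at -0.23, did not pass (edgeR adjusted p 0.0738). It passed under upper-quartile scaling (-0.28, 0.0424) and without replicate 3 at 1 µM (-0.27, 0.0236).

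Ratios within a library do not depend on library scaling, so the mitochondrial member of each pair was also set against its cytosolic counterpart. The count ratio of SHMT2 to SHMT1 was 4.18, 4.39 and 4.12 at 0 µM and 6.93, 7.38 and 7.14 at 1000 µM, and it ran from 3.91 to 5.35 over all 18 libraries below 1000 µM. MTHFD2 to MTHFD1 was 0.922, 0.825 and 0.855 at 0 µM and 1.48, 2.06 and 2.05 at 1000 µM, against 0.633 to 0.935 in the 18. MTHFD1L to MTHFD1 was 0.445, 0.422 and 0.445 at 0 µM and 0.574, 0.623 and 0.631 at 1000 µM, against 0.371 to 0.456. All 3 ratios were higher in every 1000 µM library than in any other library. The mean log2 differences were 0.64, 1.19 and 0.57, each with a p of 0.000752 in a two-sided exact permutation test of 3 libraries against 18, which is the smallest that test can give, and adjusted over 5 ratios each was 0.00125. SHMT1, MTHFD1 and MTHFD2 each already separated 1000 µM from the other 18 libraries, and the MTHFD2 and MTHFD1L ratios both use MTHFD1. These p-values are therefore not independent evidence. The share of all features that separated 1000 µM from the other 18 libraries was not counted. Against the 9 libraries at 0.01 to 1 µM, 17.7% of all features did not overlap. With AC006030.1 added to MTHFD2, its ratio to MTHFD1 differed by 1.02 (exact permutation adjusted p 0.00251), and replicate 1 at 0.01 µM then overlapped the 1000 µM libraries.

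The remaining ratios gave no such separation. PSAT1 to PHGDH was 1.45, 1.35 and 1.29 at 0 µM and 1.03, 1.65 and 1.34 at 1000 µM, within the range of 0.938 to 2.77 of the 18 libraries (log2 difference 0.02, exact permutation p 0.917, adjusted 0.917). MAT2A to MAT1A was 0.677, 0.691 and 0.851 at 0 µM and 0.834, 0.906 and 0.980 at 1000 µM, which overlapped the 18 libraries (log2 difference 0.16, exact permutation p 0.150, adjusted 0.187). MAT1A itself fell at 1000 µM against 0 µM by 0.33 on the log2 scale (edgeR adjusted p 0.00188), a call lost with no filter on low counts (0.0516).

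**Figure D4:**
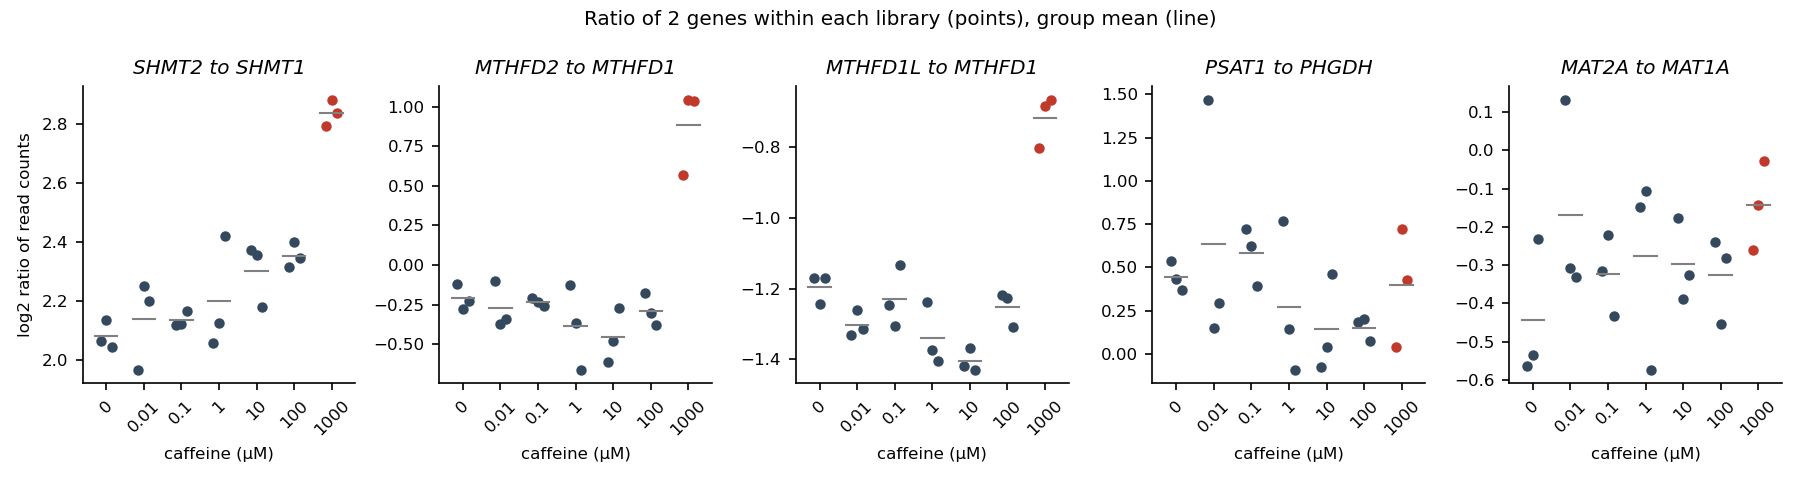
Log2 ratio of the read counts of 2 genes in the same library (y axes, each with its own range) by caffeine dose (x axes). Points are libraries, red at 1000 µM, and grey lines are group means. In the first 3 panels the red points lie above all others, and in the last 2 they lie among them.

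At the doses below 1000 µM few members were called. The count against 0 µM was 0 of 9 at 0.01, 0.1, 1 and 100 µM in edgeR, where 4.95%, 0.00%, 0.00% and 6.02% of all features passed, and 1 of 9, PSPH (lower), at 10 µM, where 22.0% did, 11.3% higher and 10.7% lower. At an unadjusted p under 0.05, 3, 0, 4 and 2 members passed at 0.01, 0.1, 1 and 100 µM, where 26.1%, 15.2%, 22.8% and 25.6% of all features did. DESeq2 called 0 of 9 at each of these 4 doses and 3 at 10 µM, against 11.3%, 2.60%, 6.59% and 10.8% of all features and 24.7% at 10 µM. Members whose libraries did not overlap those at 0 µM numbered 5, 1, 4, 4 and 5 at 0.01, 0.1, 1, 10 and 100 µM, against 32.0%, 22.5%, 23.6%, 45.8% and 43.0% of all features. The estimate was lower than at 0 µM for 8 of 9 members at 0.01, 1, 10 and 100 µM and for 6 at 0.1 µM, and these comparisons share the same 3 control libraries. MAT2A was the member with the higher estimate at 0.01, 1 and 10 µM, at 275, 222 and 219 CPM, 257, 242 and 188 CPM, and 226, 203 and 232 CPM.

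Averaging 0.01, 0.1 and 1 µM against 0 µM gave 0 of 9 calls in edgeR, where 8.80% of all features passed. At an unadjusted p under 0.05 this comparison had 4 members and 27.6% of all features, and DESeq2 called 1 member and 13.4% of all features. SHMT1 was lower in all 9 low-dose libraries than in any control library, the 1 of 9 members without overlap where 6.42% of all features had none.

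A test among the 7 groups called 5 of 9 members, MTHFD2 (edgeR adjusted p 0.00131), SHMT1 (0.000963), MTHFD1 (0.00888), MTHFD1L (0.0319) and PSPH (0.0496), with 28.1% of all features. Without the 3 libraries at 1000 µM it called 0 of 9, where 0.882% of all features passed. The calls of MTHFD1L and PSPH were the least firm, lost without 7 and without 15 of the 21 single libraries. Leaving out a library brought the count to 3 for replicates 1 and 2 at 0 µM, at 10 µM and at 1000 µM, in each of which MTHFD1L and PSPH were lost, and to 2 for replicate 3 at 1000 µM, where MTHFD1 was lost too (edgeR adjusted p 0.0773).

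A linear trend over the doses ranked 0 to 6 called 3 of 9 members, all lower, where 29.0% of all features passed, 14.5% in each direction. The slopes per rank on the log2 scale were -0.07 for SHMT1 (edgeR adjusted p 0.00223), -0.05 for PSPH (0.0130) and -0.04 for MTHFD1 (0.0307). None of the 3 passed without the libraries at 1000 µM, with adjusted p of 0.131, 0.0998 and 0.707, where 5.73% of all features did. Without the 0 µM libraries SHMT1 passed, whereas PSPH (0.326) and MTHFD1 (0.0792) did not. MTHFD1 also lost its slope without any 1 library at 1000 µM (0.0756 to 0.110). MTHFD2 had a slope of 0.08 (edgeR adjusted p 0.0738) that did not pass. It passed with log2(dose + 1) in place of the rank (0.00616), with the mitochondrial share as a covariate (0.0350) and without replicate 1 at 10 µM (0.0478). With the counts of AC006030.1 added to MTHFD2 the slope was 0.01 (edgeR adjusted p 0.842). PSPH lost its slope with log2(dose + 1) (0.0676). MAT2A had a slope of -0.03 (edgeR adjusted p 0.268) that did not pass, but it passed without the 0 µM libraries (-0.06, 0.0468).

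The neighbouring steps of the pathway were described from lists chosen with earlier results of these data known, so their counts are not independent evidence. The shares to read them against are those of all tested features at 1000 µM against 0 µM, 20.6% higher, 20.6% lower and 41.2% in all. At 1000 µM against 0 µM, 8 of 11 tested genes listed under glycine and serine breakdown fell against 20.6% of all features, 0 rose and 3 did not pass. Their median log2 fold change was -0.43 against -0.03 for all features. This list is mixed, since some of its enzymes form glycine, AGXT among them. AGXT, which converts glyoxylate to glycine in peroxisomes, fell by 1.24, SARDH, the sarcosine dehydrogenase, fell by 0.81, and SDSL, a serine dehydratase-like enzyme, fell by 0.75 on the log2 scale. The glycine cleavage genes GLDC, GCSH and AMT fell by 0.40, 0.43 and 0.37 (edgeR adjusted p 0.00131, 0.0131 and 0.0156). The last 2 lost their calls without replicate 1 at 1000 µM, GCSH also without replicate 1 at 0 µM and AMT also without replicate 3 at 1000 µM, with adjusted p of 0.0703 to 0.101. With any 1 library of either group left out, the list's count of genes that fell was 5 to 7, never 8. It was 5 without replicate 1 or without replicate 3 at 1000 µM.

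Among 15 tested folate carriers and cofactor enzymes, 8 fell, 2 rose and 5 did not pass, against 20.6% of all features in each direction, with a median of -0.34. FTCD, a liver enzyme of histidine breakdown, fell by 0.79, the reduced folate carrier SLC19A1 fell by 0.68, MTHFS fell by 0.66, and the proton-coupled transporter SLC46A1 fell by 0.39 on the log2 scale. GART, a purine synthesis enzyme that uses formyl-tetrahydrofolate, rose by 0.35 (edgeR adjusted p 0.000833), and SLC25A32, the mitochondrial folate carrier, was the other that rose. SLC25A32 was named after its value was seen (0.33, edgeR adjusted p 0.0478), and without replicate 1 or 2 at 0 µM or without replicate 2 or 3 at 1000 µM only 1 gene of the list rose. MTHFD2L, the isozyme of MTHFD2, had 8.91 ± 0.799 CPM at 0 µM, and its log2 difference of -0.18 did not pass (edgeR adjusted p 0.591).

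Of 14 tested methionine cycle genes 3 rose, 4 fell and 7 did not pass, with a median of -0.05, a share called near the 41.2% of all features. GNMT, the liver glycine methyltransferase that uses S-adenosylmethionine, fell by 1.50 from 2.59 ± 0.305 CPM, the creatine enzyme GAMT fell by 0.94, and PEMT, which methylates phosphatidylethanolamine, fell by 0.55 on the log2 scale. The methionine synthase MTR rose by 0.38 and its reductase MTRR by 0.52 (edgeR adjusted p 0.00937 and 0.00137). Of 4 tested transsulfuration genes 1 fell, near the 20.6% of all features, CSAD with -0.57 (edgeR adjusted p 0.00775), and that call was lost without replicate 3 at 0 µM (0.0602).

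Transport genes for serine and glycine gave 3 that rose, 1 that fell and 4 that did not pass of 8, a share called near the 41.2% of all features, with a median of 0.12. The neutral amino acid transporters SLC38A2 and SLC38A1 rose by 1.40 and 1.10, the glycine transporter SLC6A9 rose by 0.51, and SFXN2, of the mitochondrial sideroflexin family, fell by 0.69 on the log2 scale. Among ATF4 and its amino acid targets 11 of 22 rose, 3 fell and 8 did not pass, against 20.6% of all features in each direction, with a median of 0.32. ATF4 rose by 0.68 and ASNS, the asparagine synthetase, by 0.46 (edgeR adjusted p 0.000456 and 0.000986). The cystine transporter SLC7A11 rose by 1.66, CHAC1, which degrades glutathione, by 1.44, the secreted glycoprotein STC2 by 0.81, SLC7A5, a large neutral amino acid transporter, by 0.65, VLDLR by 0.63 and the glycyl-tRNA synthetase GARS1 by 0.48. The 3 that fell, named after their values were seen, were DDIT3, TRIB3 and PYCR1, and without replicate 1 or 2 at 0 µM or without replicate 3 at 1000 µM the number that fell was 1. Of the members often listed as ATF4 targets, MTHFD2 rose with the limits above, PSPH fell, and PHGDH, PSAT1 and SHMT2 did not pass.

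**Figure D5:**
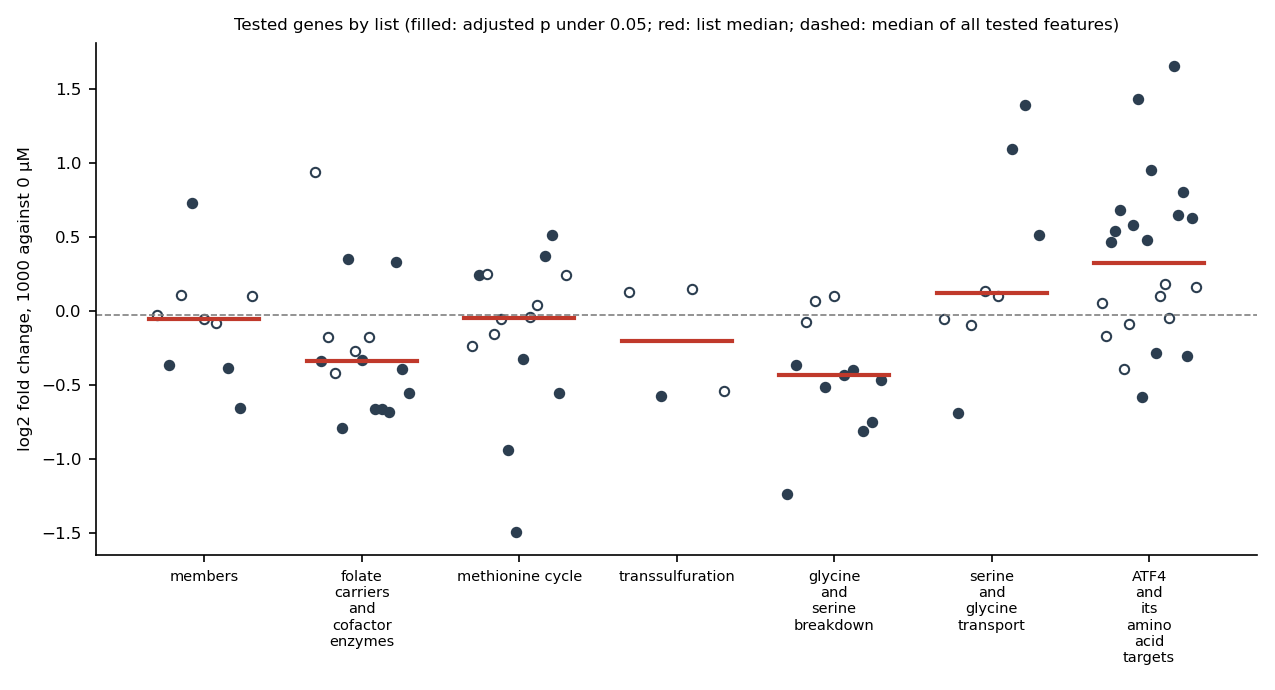
Log2 fold change at 1000 µM against 0 µM (y axis) of the tested genes of each list (x axis, in alphabetical order of symbols within a list). Filled points passed the threshold, red lines are list medians and the dashed line is the median of all tested features. The median of the mixed list named glycine and serine breakdown lies at -0.43 and that of ATF4 and its targets at 0.32.

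Genes with the most similar pattern over the 21 libraries were looked up for each member among 9410 tested genes with a symbol and a mean of at least 10 CPM, by Pearson's r of log2 CPM. These values are descriptions, and libraries of a dose share whatever sets them apart. MTHFD2 was closest to HBP1 and MPZL3, with r of 0.972 and 0.971, and over the 18 libraries below 1000 µM the values were 0.900 and 0.901. SHMT1 was closest to KHK and MVK at 0.966 and 0.958, MTHFD1 to DDC and GYG2 at 0.956 and 0.955, and PSAT1 to DRAM1 and YTHDF2 at 0.973 and 0.971. Below 1000 µM the values were 0.903 and 0.855 for SHMT1, 0.851 and 0.771 for MTHFD1, and 0.977 and 0.971 for PSAT1. SHMT2 was closest to ATG101 and NRBP1, PHGDH to MGAT1 and TRAF2, PSPH to RNPEP and TIMM44, MTHFD1L to PRPSAP1 and GSR, and MAT2A to ZMAT3 and WDR72, with r from 0.888 to 0.961.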

How the data were processed

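The deposited table gives unnormalised read counts, as whole numbers, for each feature. Per the submitters' processing notes, GRCh38, HISAT2 and DESeq2 were used. The counting program, its annotation and its strand setting are not given in the sources used here, so overlapping genes are treated as uncertain. The table has 42 columns of single samples, of which 21 carry names found in the labels and the other 21 were not used. The counts were analysed with edgeR 4.0.16 (R 4.3.3): TMM scaling, a filter at a minimum count of 10, 1 quasi-likelihood fit over 21 samples and 7 groups with 14 residual degrees of freedom, and Benjamini-Hochberg adjustment over 17468 features with a threshold of 0.05. Alternatives were DESeq2 1.42.0, upper-quartile scaling, no filter, the mitochondrial share as a covariate, 6 samples alone, log2(dose + 1) for the trend, a replicate block and leaving out each library in turn. Standard errors were derived from the fold change and its F statistic. CPM are TMM-scaled, and levels per kilobase use the longest principal transcript of GENCODE release 29. Ratios were tested after adding 0.5 to each count. The script was tested on simulated data. Gene coordinates are those of GENCODE release 29 on GRCh38. Replicate libraries were checked with a chi-square statistic per feature, at 5.45 to 207 over the 21 pairs within doses. Each was counted as a sample of its own, and this statistic cannot tell whether libraries of a dose share a culture. Where cultures are shared, p-values measure only the spread between these samples.

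The members, lists, motifs and tests were chosen with earlier results of these data known. The members, up to 6 genes per list with the smallest p-values past the threshold at 1000 µM against 0 µM, MAT1A, MTHFD2L, ATF4, ASNS and the 2 genes most like each member are named. Of these, 1 gene that the rule names is not reported here.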

Additional observations from a re-analysis of the deposited data

How the results depend on the processing

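The 4 calls at 1000 µM against 0 µM were 4 of 9 without any 1 library. Without 1 library the count was 2 to 3 at 1000 against 100 µM, 3 to 6 against the mean of 0.01, 0.1 and 1 µM, 2 to 5 among the 7 groups, 2 to 4 for the slope, 0 to 3 at 10 µM, 0 to 1 at 1 µM (1 without its replicate 1) and 0 to 2 for the low-dose mean against 0 µM. At 10 µM the count of 1 was 3 with DESeq2, 0 with no filter, 2 with 6 samples alone and 2 with AC006030.1 added. At 100 µM the count of 0 was 1 with the mitochondrial covariate and 3 with 6 samples alone. For the low-dose mean it was 1 with DESeq2 and 2 with the covariate. With no filter the count against the low-dose mean was 3, among the 7 groups 2 and for the slope 1. Without the libraries at 1000 µM the last of these was 0, as was the count among the groups, which was 3 without those at 0 µM.

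Replicate numbers did not pair the libraries: deviations of same-numbered libraries correlated from -0.437 to 0.249, and 3 of 21 libraries correlated best with their own number. With the replicate block the count among the 7 groups was 3 and the adjusted p of SHMT2 against the low-dose mean was 0.0570. The block left the counts against 0 µM at 0, 0, 0, 1, 0 and 4.

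Against the 3 libraries at 0 µM alone, where an exact permutation test cannot go below 0.1, the log2 ratio differences were 0.76 for SHMT2 to SHMT1, 1.09 for MTHFD2 to MTHFD1, 0.48 for MTHFD1L to MTHFD1 and -0.050 for PSAT1 to PHGDH. The last ran from -0.14 to 0.20 without 1 library.

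Signs turned only for values that did not pass. With the covariate these were SHMT2 (0.021) and MTHFD1 (0.020) at 10 µM, and PSAT1 (0.0067) and MAT2A (0.00022) at 1000 against 0 µM. SHMT2 at 10 µM was 0.0060 with DESeq2, 0.015 with no filter and 0.0018 with 6 samples alone. MAT2A with no filter was 0.0041 at 1000 against 0 µM and -0.0092 against 100 µM. Upper-quartile scaling gave -0.0081 for PHGDH and -0.025 for MAT2A against 100 µM. Slopes without 1000 µM were -0.0058 for PHGDH, -0.037 for MTHFD2 and -0.028 for MTHFD1L. Without 1 library, the log2 values at 10 against 0 µM ran from -0.026 to 0.012 for SHMT2 and from -0.080 to 0.021 for MTHFD1. At 1000 against 0 µM they ran from -0.27 to 0.088 for PSAT1, from -0.086 to 0.068 for MAT2A and from -0.30 to 0.048 for MTHFD2L. Against 100 µM they ran from -0.024 to 0.067 for PHGDH and from -0.025 to 0.095 for MAT2A, and against the low-dose mean from -0.13 to 0.22 for PSAT1. Slopes ran from -0.0024 to 0.016 for PHGDH and from -0.0022 to 0.014 for MTHFD1L. Depth did not limit the members, which had 1661 counts or more.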
